A study of Homo sapiens with 22 samples.

Results

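The comparison described here sets PC9 cells tolerant to gefitinib against parental PC9 cells when both were under gefitinib. It uses 4 of the 22 RNA-seq libraries of the study, chosen by their labels: both replicates of the tolerant cells under gefitinib and both replicates of the parental cells under gefitinib. PC9 is an established human lung adenocarcinoma line with an activating mutation of the epidermal growth factor receptor (EGFR), and gefitinib is a reversible inhibitor of that receptor. The study followed several routes by which this line comes to live with EGFR inhibitors, and it also holds PC9-GR2 and PC9-GR3 derivatives and cells tolerant to WZ4002, an irreversible inhibitor of EGFR.

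6 of the 11 groups are used, with 2 libraries in each. The groups compared are the gefitinib-tolerant derivative under gefitinib and the parental line under gefitinib. The same populations under vehicle, the WZ4002-tolerant derivative under WZ4002 and the parental line under WZ4002 serve only to show where the first pair differs. The labels give 24 h for vehicle, gefitinib and WZ4002 alike and write the dose of either drug as 1 mM, which is repeated here as written. They do not say how long the tolerant cells had been kept under drug before the treatment, whether tolerant cells were a pool or a clone, or whether the replicates were separate cultures. A p-value here therefore reflects only how far paired libraries lay from each other, and that spread may be technical.

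EGFR, when bound by ligand or mutated, drives the RAS-ERK and PI3K-AKT pathways. ERK raises its own brakes (the DUSP phosphatases, Sprouty and SPRED proteins) together with ETV4, ETV5 and cyclin D1, while AKT keeps FOXO transcription factors out of the nucleus. Inhibiting the receptor in a cell that depends on it stops division, releases FOXO and raises BIM, the death protein encoded by BCL2L11. Some cells survive such treatment without a resistance mutation, and such tolerant cells are known for mesenchymal and matrix genes, for the receptor kinase AXL and for altered differentiation.

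The values are gene counts scaled to the depth of the library (CPM), and a difference is the tolerant minus the parental mean of log2(CPM + 1), with its standard error (SE). A gene was called at a limma adjusted p of 0.05 or less over the 15485 genes tested. A fold on this scale understates the change of low genes, and CPM of one gene cannot be set against CPM of another, since the values are not per length. In bulk RNA, fewer cells of a type and less RNA per cell cannot be told apart. The 4 libraries held 23.6 to 39.6 M reads, against 23.6 to 49.6 M over all 22. Genes in the table held 57.3% and 58.1% of the CPM in tolerant and 61.1% and 60.7% in parental libraries under gefitinib. This came to 14.4 to 23.0 M reads in these 4, and the rest of the depth lay outside the table. Within a pair the SD of log2 values between libraries was 0.236 for the tolerant and 0.196 for the parental libraries, beyond sampling noise in both. Epithelial EPCAM stood at 299 and 219.9 CPM in tolerant and 228 and 194 CPM in parental libraries, while NKX2-1, the lung lineage factor, was at 0.66 CPM or less in all 12 libraries used. Of the markers of other cell types, 2 of 10 leukocyte, 5 of 7 endothelial, 6 of 9 fibroblast and 2 of 7 neuroendocrine genes are in the table. PTPRC, CD3E, PECAM1 and CHGA, the defining markers among them, are not.

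Tolerant and parental cells under the same drug differed in 4942 of 15485 genes (31.9%), of which 2521 (16.3%) were higher and 2421 (15.6%) lower in tolerant cells. Of these, 1733 (11.2%) differed at least 2-fold. Over all genes tested the median difference was -0.00178, so the values of gene groups below can be read against a centre near 0. Counts of rises and falls in a group can be read against the 16.3% and 15.6% of all genes. The count depended on single libraries: it was 2625 without tolerant replicate 1, 3003 without parental replicate 1 and 3193 without parental replicate 2, and 4161 without tolerant replicate 2. In these fits and in the other settings tried, no called gene changed its direction.

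**Figure D1:**
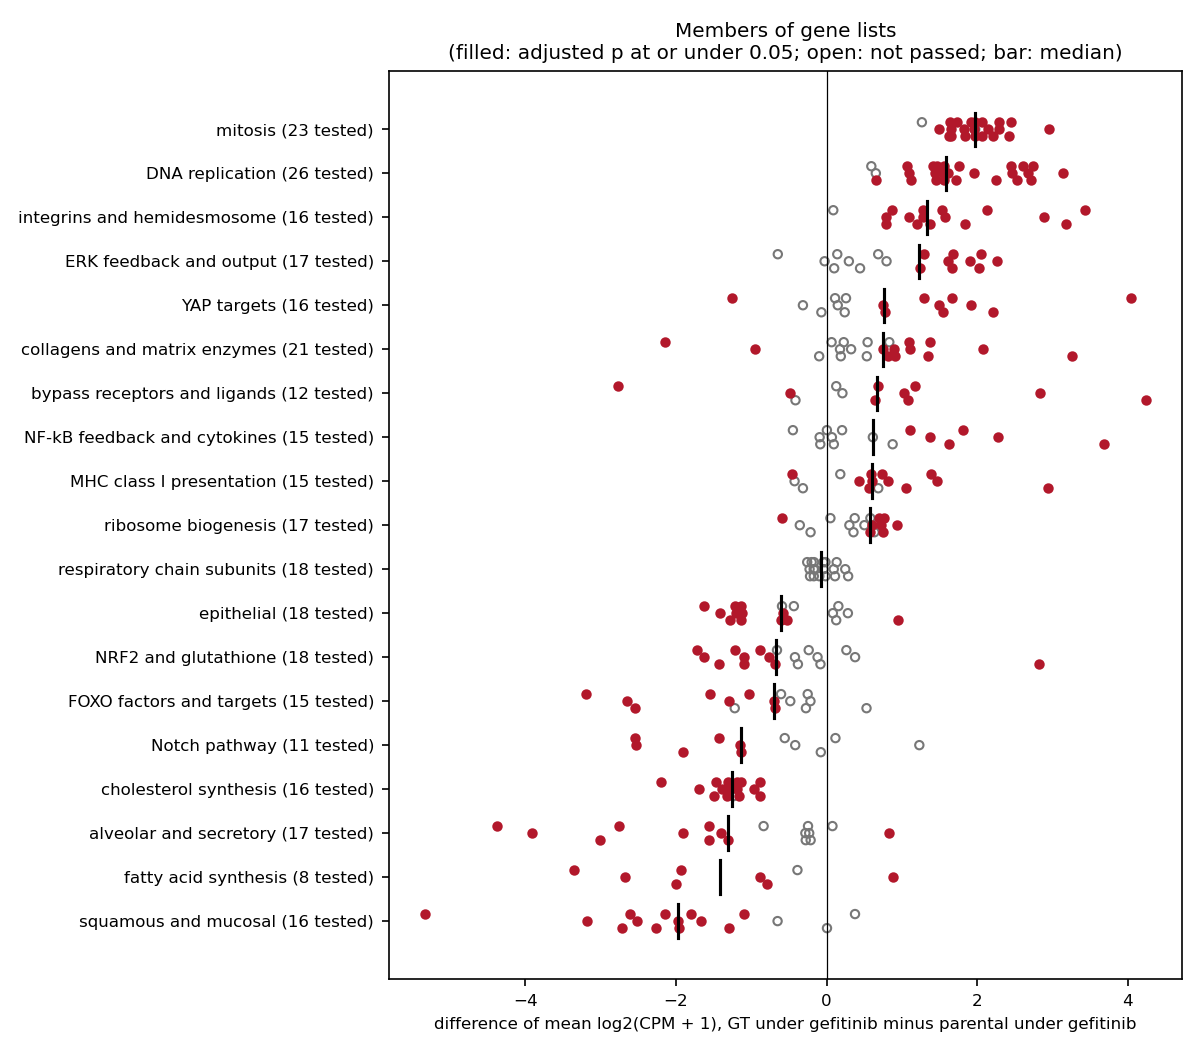
Each point is one gene of a gene group (rows), placed by its difference between tolerant and parental cells under gefitinib in log2(CPM + 1); filled points passed the limma test and the bar marks the group's median. DNA replication and integrin genes lie to the right of 0 with medians of 1.59 and 1.33, and squamous and alveolar genes lie to the left with medians of -1.97 and -1.31.

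The 12 largest rises in tolerant cells included SPOCK1, FN1, THBS1, COL5A1 and AXL. FN1, fibronectin, which integrins bind outside the cell, had 1409 and 2745 CPM in tolerant and 68.5 and 76.1 CPM in parental libraries under gefitinib. The lower tolerant library was still far above both parental ones, and the difference was 4.75 ± 0.46 (adjusted p = 4.32e-06). SPOCK1, a matrix proteoglycan, was the largest rise of all, with 119 and 139 CPM in tolerant and 3.64 and 2.72 CPM in parental libraries, a difference of 4.96 ± 0.40. THBS1, thrombospondin 1, stood at 392 and 203 CPM in tolerant and 15.4 and 8.78 CPM in parental libraries. The 2 libraries of each pair differed from each other, yet the lower tolerant one lay far above both parental ones (4.48 ± 0.40). COL5A1, a fibrillar collagen chain, had 25.96 and 33.98 CPM in tolerant cells and 0.51 and 0.65 CPM in parental cells, where it was close to the limit of detection.

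AXL, a receptor tyrosine kinase and the one most often tied to EGFR inhibitor tolerance, had 167 and 133 CPM in tolerant libraries and 7.19 and 6.72 CPM in parental libraries. Both pairs were tight and far apart, with a difference of 4.24 ± 0.27 (adjusted p = 1.61e-07). Its ligand GAS6 had 88.05 and 118 CPM in tolerant and 15.5 and 11.6 CPM in parental libraries (2.83 ± 0.35). The other largest rises were CST1, a cystatin protease inhibitor (4.52), INHBA, the activin A subunit (4.09), MCAM, an adhesion molecule of the immunoglobulin family (4.08), ANKRD1, a YAP target (4.03), MYH15, a myosin heavy chain (3.80), CPA4, a secreted carboxypeptidase (3.79), and PSG1, a pregnancy-specific glycoprotein (3.71). PSG1 belongs to a family of near-identical genes, so its reads may be shared with other members. All 12 rises held their call when any one of the 4 libraries was left out.

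**Figure D2:**
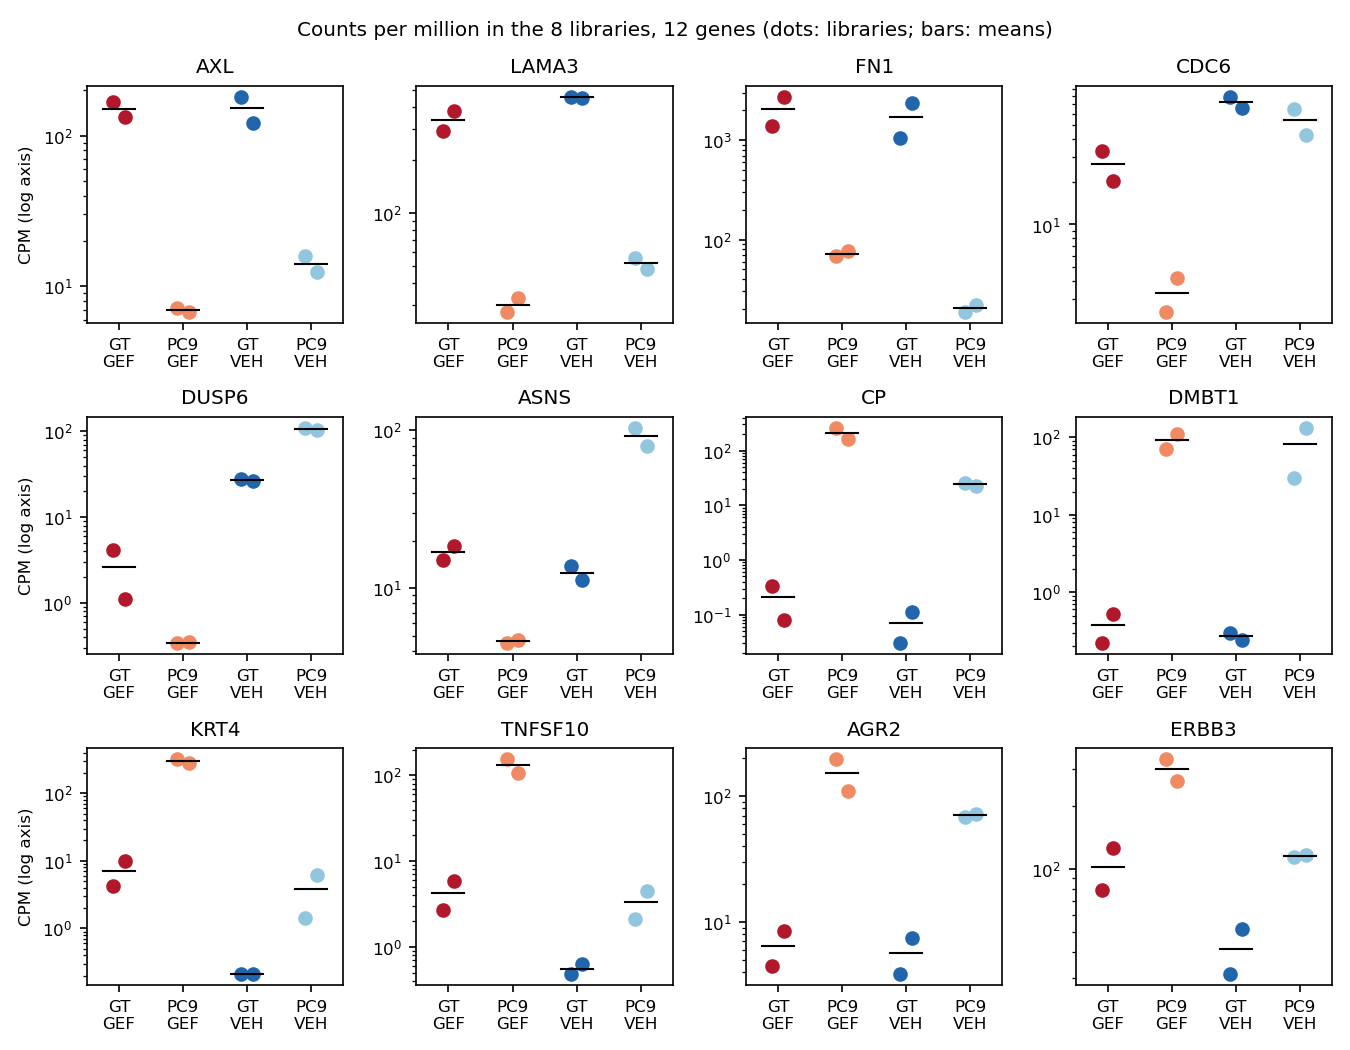
CPM on a log axis for 12 genes named in the text, one point per library and a bar at each mean, for tolerant (GT) and parental (PC9) cells under gefitinib (GEF) and then under vehicle (VEH). In every gene drawn both tolerant libraries under gefitinib lie on one side of both parental ones, and KRT4 and TNFSF10 stand high in parental cells under gefitinib alone.

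The integrin and hemidesmosome list holds receptors that bind matrix outside the cell, together with genes that anchor epithelial cells to the basement membrane. Its genes were higher in tolerant cells in 15 of 16 cases, with a median difference of 1.33. LAMA3, a chain of laminin-332, the ligand of hemidesmosomes, had 289.9 and 379.5 CPM in tolerant and 27.3 and 32.9 CPM in parental libraries. The groups did not overlap, with a difference of 3.42 ± 0.27. ITGA6, the integrin chain that binds laminin-332, had 207 and 103 CPM in tolerant and 13.1 and 17.7 CPM in parental libraries (3.18 ± 0.35). ITGB1, the common partner of collagen and fibronectin receptors, rose by 1.57. Without any one library, 12 or 13 of the 16 still passed.

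The promoter of LAMA3 is shown because it holds the letters TGANTCA, the core bound by AP-1, in 2 places. It is taken from RefSeq (GRCh38.p14, chr18:23872770-23873069, plus strand, 250 bases before to 50 after the gene's start), with the matches in capitals.
LAMA3: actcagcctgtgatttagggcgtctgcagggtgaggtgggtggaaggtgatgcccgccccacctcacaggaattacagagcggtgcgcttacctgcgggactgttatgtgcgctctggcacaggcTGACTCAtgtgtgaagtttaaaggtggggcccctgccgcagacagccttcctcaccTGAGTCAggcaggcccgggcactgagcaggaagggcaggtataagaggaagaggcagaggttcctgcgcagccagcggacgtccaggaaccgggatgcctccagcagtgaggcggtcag
On either strand these letters were found in 25% of the promoters of the integrin and hemidesmosome genes (3 of 12). They were in 40% of those of the squamous genes (4 of 10), against 4.70% of 10718 promoters of the genes tested. Among genes that differed at least 2-fold, they were in 5.28% of the promoters of the rises and 7.09% of the falls. The match describes letters in this window and not a bound site.

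Collagens and matrix enzymes rose in 10 and fell in 2 of 21 genes, with a median of 0.76. Of the falls, MMP13, collagenase 3 (-0.95), was called in 1 of the 4 fits that left out 1 library, the one without parental replicate 1. COL16A1, a collagen of the fibril surface, rose by 3.26, MMP14, a membrane-bound matrix protease, by 2.08 and TIMP2, which inhibits and also helps to activate such proteases, by 1.37. MMP7, a matrilysin made by glandular epithelium, had 0.25 and 0.86 CPM in tolerant and 10.2 and 3.05 CPM in parental libraries, with no overlap (-2.14 ± 0.34). Of the mesenchymal genes, 4 of 12 rose, among them FN1, THBS1 and COL5A1. SNAI1, a repressor of epithelial genes, and LOX, which crosslinks collagen, fell by 0.77 and 1.75, and the call of SNAI1 was lost without parental replicate 2 or either tolerant replicate. CDH2 and PRRX1 were too low to be tested, and ZEB2 and TWIST1 are not in the table.

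Of the epithelial genes, 11 of 18 fell, with a median of -0.60, and 1, KRT7, a keratin of simple epithelium, rose (0.94), a call lost without tolerant replicate 2. KRT8, its partner KRT18 and KRT19, the other keratins of simple epithelium, fell by 1.28, 1.12 and 1.21. KRT8 had 1040.2 and 1184 CPM in tolerant and 2921 and 2503 CPM in parental libraries, and the groups did not overlap. Parental libraries under vehicle had 1216 and 1105 CPM of KRT8. The epithelial list had a median of 0.48 in the 24 h response of parental cells, with shared libraries, and 10 of 18 were higher and 1 lower. Tolerant cells under drug differed from untreated parental cells by a median of 0.0038 for this list, with 5 higher and 3 lower. GRHL1, a transcription factor of epithelial barriers, fell by 1.63. CDH1, E-cadherin, stood at 239 and 213 CPM in tolerant and 213 and 192 CPM in parental libraries, a difference of 0.16 ± 0.17 that was not called (adjusted p = 0.505). The lower tolerant library of CDH1 was at the upper parental one.

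The 12 largest falls included CP, DMBT1, AGR2, KRT4 and TNFSF10. CP, ceruloplasmin, the copper-carrying ferroxidase, had 0.34 and 0.08 CPM in tolerant libraries, which is a few reads, and 261 and 165 CPM in parental libraries (-7.44 ± 0.64, adjusted p = 1.48e-06). It was the largest difference in the table, and CPP, the pseudogene of CP, fell with it (-3.92), so the reads of both copies may not be separable. DMBT1, a mucosal scavenger protein, had 0.22 and 0.53 CPM in tolerant and 71.5 and 111 CPM in parental libraries (-6.04 ± 1.11), and AGR2, a disulfide isomerase of mucus-making cells, had 4.43 and 8.48 CPM in tolerant and 198 and 109 CPM in parental libraries (-4.37 ± 0.41). The parental libraries were high and the tolerant ones low in both genes, with no overlap. The other large falls were PALMD, a cytosolic protein of the paralemmin family (-5.06), SEMA5B, a semaphorin (-4.78), ALDH3B2, an aldehyde dehydrogenase (-4.51), CASP14, the caspase of cornifying epidermis (-4.51), RHOV, a small GTPase (-3.93), and TPPP3, which binds tubulin (-3.93). All 12 falls held without any one library.

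Squamous and mucosal genes fell in 13 of 16 cases, with a median of -1.97. KRT4, the keratin of moist stratified epithelium, had 4.21 and 9.82 CPM in tolerant and 323 and 282 CPM in parental libraries under gefitinib (-5.33 ± 0.54). Under vehicle it had 0.21 and 0.21 CPM in tolerant and 1.41 and 6.27 CPM in parental libraries. KRT4 was thus high only in parental cells under drug among these 4 groups. KRT13, the partner of KRT4, fell by 2.52, and KRT15 and KRT6A, keratins of basal and of wounded epithelium, by 3.17 and 1.97. KRT6A shares near-identical sequence with KRT6B, so its count is uncertain. In the 24 h response of parental cells, which uses the same parental gefitinib libraries, the squamous genes had a median of 1.55, and 11 of 16 were higher than in parental cells under vehicle (23.5% of all genes tested were).

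Alveolar and secretory genes fell in 9 of 17 cases, with a median of -1.31, and 1, GATA6, a foregut transcription factor, rose (0.83). CEACAM5, a surface glycoprotein of glandular epithelium, had 0.8 and 2.58 CPM in tolerant and 20.9 and 18.1 CPM in parental libraries, with no overlap (-3.01 ± 0.38). MUC1, a membrane mucin, fell by 1.90, MUC5B, a gel-forming mucin, by 2.76 and FOXA1, a factor of endodermal differentiation, by 1.40. In the Notch pathway, which sets secretory against other fates in airway epithelium, 6 of 11 genes fell. The receptor NOTCH3 had 68.8 and 73.8 CPM in tolerant and 361 and 478 CPM in parental libraries (-2.53 ± 0.23). The Notch targets NRARP, HES1 and HEY1 fell by 2.54, 1.43 and 1.90.

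EGFR itself stood at 791 and 590.0 CPM in tolerant and 1013 and 748 CPM in parental libraries under gefitinib. The groups overlapped, and the difference of -0.35 ± 0.24 was not called (adjusted p = 0.296). Its partner ERBB3, which recruits PI3K, had 79.01 and 125 CPM in tolerant and 335 and 264 CPM in parental libraries and fell by 1.57 ± 0.26. ERBB2, the partner without a ligand of its own, fell by 0.68, a call that held only without tolerant replicate 2 among the fits that left out 1 library. Of the EGFR ligands and their sheddases, 2 of 9 rose, TGFA by 1.45 and HBEGF by 1.80. HBEGF kept its call only without tolerant replicate 2. Of the proteins that limit the receptor, 4 of 10 rose: the phosphatase PTPN1 (0.87), the endocytic adaptor SH3KBP1 (1.41), the kinase TNK2 (0.47) and SOCS4 (0.53), and the last was called in none of the fits that left out 1 library, TNK2 in those without parental replicate 2 and without tolerant replicate 1.

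Genes that ERK induces were higher in tolerant than in parental cells under drug, and far lower than in untreated parental cells. Of 17 feedback and output genes, 9 rose and the rest did not pass, with a median of 1.23. DUSP6, the phosphatase that switches ERK off, had 4.18 and 1.11 CPM in tolerant and 0.34 and 0.35 CPM in parental libraries under gefitinib. Under vehicle it had 28.1 and 26.7 CPM in tolerant and 110.3 and 103 CPM in parental libraries. Both drug-treated groups were thus at a small share of either vehicle group, and the rise under drug of 1.30 ± 0.41 held only without tolerant replicate 2. DUSP4, a related nuclear phosphatase, had 64.4 and 24.8 CPM in tolerant and 8.04 and 12.2 CPM in parental libraries (1.91 ± 0.32). IER3, an early-response survival protein, had 30.2 and 23.2 CPM in tolerant and 4.78 and 4.73 CPM in parental libraries (2.26 ± 0.29), and LIF, a cytokine, rose by 1.62. CCND1, cyclin D1, had 233 and 182 CPM in tolerant and 50.1 and 47.5 CPM in parental libraries, with no overlap (2.06 ± 0.27). Set side by side, and sharing libraries with the comparison above, tolerant cells under drug against parental cells under vehicle gave a median of -2.55 with 13 of 17 lower (15.7% of all genes tested were), and parental cells under drug against vehicle gave -2.85 with 16 lower (21.8% of all genes tested were).

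Among the AP-1 and immediate-early genes, FOSL1, the AP-1 member of invasive cells, rose by 2.67, a call lost without parental replicate 1 or tolerant replicate 1. FOS, the AP-1 member of acute signalling, had 1.79 and 1.41 CPM in tolerant and 6.9 and 7.02 CPM in parental libraries and fell by 1.62 ± 0.27. IER2 and FOSB, also immediate-early genes, fell by 1.09 and 0.88, and the call of FOSB was lost without parental replicate 2 or tolerant replicate 1. ATF3, a stress-induced member of the same family, rose by 1.64, a call lost without parental replicate 2 or tolerant replicate 1. In all 2 of 12 rose and 3 fell, against 16.3% and 15.6% of all genes tested.

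Genes of DNA replication were higher in tolerant cells in 24 of 26 cases, with a median of 1.59. CDC6, which loads the replicative helicase, had 33.02 and 20.2 CPM in tolerant and 2.41 and 4.22 CPM in parental libraries under gefitinib. Under vehicle CDC6 had 79.3 and 66.5 CPM in tolerant and 65.6 and 42.6 CPM in parental libraries. The parental libraries under drug stood apart below the other 3 groups, and the difference under drug was 2.67 ± 0.35 (adjusted p = 5.82e-05). MCM10 and CDC45, which activate the helicase, rose by 2.74 and 2.45, and RFC3, of the complex that loads the sliding clamp, by 2.25. Between 16 and 23 of the 26 rose in the fits that left out 1 library, with the fewest without tolerant replicate 1. The 24 h response of parental cells, with shared libraries, had a median of -2.21 for these genes, and tolerant cells under drug differed from untreated parental cells by a median of -0.59.

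The promoters of CDC6 and of MCM2, which was picked after its values were seen, are shown for the letters TTTNNCGC, which are the core of the E2F site. They come from RefSeq (GRCh38.p14), CDC6 at chr17:40287629-40287928 and MCM2 at chr3:127598161-127598460, both on the plus strand and from 250 bases before to 50 after the start, with the letters in capitals.
CDC6: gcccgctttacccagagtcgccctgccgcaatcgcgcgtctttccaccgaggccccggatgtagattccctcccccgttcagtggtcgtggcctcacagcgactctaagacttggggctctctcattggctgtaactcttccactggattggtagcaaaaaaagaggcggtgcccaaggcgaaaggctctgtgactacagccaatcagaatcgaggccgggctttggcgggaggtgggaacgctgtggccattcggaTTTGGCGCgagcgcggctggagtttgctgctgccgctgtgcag
MCM2: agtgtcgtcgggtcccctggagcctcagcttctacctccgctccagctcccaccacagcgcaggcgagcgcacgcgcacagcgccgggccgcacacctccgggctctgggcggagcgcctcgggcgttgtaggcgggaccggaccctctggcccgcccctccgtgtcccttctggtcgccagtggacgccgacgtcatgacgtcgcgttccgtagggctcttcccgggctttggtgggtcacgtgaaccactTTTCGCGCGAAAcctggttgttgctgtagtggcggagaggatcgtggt
CDC6 holds 1 match and MCM2 holds 2 that overlap on opposite strands. Counting both strands, the letters were in 68.2% of the promoters of DNA replication genes (15 of 22), against 10.4% of all 10718. Among genes that differed at least 2-fold, they were in 13.5% of the promoters of the rises and 5.56% of the falls. MCM2, a helicase subunit, had 69.8 and 47.8 CPM in tolerant and 10.9 and 8.51 CPM in parental libraries (2.47 ± 0.45).

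Mitosis genes rose in 21 of 23 cases, with a median of 1.97, but their calls rested on single libraries. CDK1, the kinase that starts mitosis, had 77.03 and 50.2 CPM in tolerant and 9.35 and 5.49 CPM in parental libraries (2.95 ± 0.65). Both tolerant libraries lay above both parental ones, and CDK1 held its call without any one library. FOXM1, which drives the genes of G2 and mitosis, rose by 1.84 and held except without tolerant replicate 1. BIRC5, survivin, and CCNA2, cyclin A, rose by 1.97 and 2.42, calls lost without parental replicate 2 or tolerant replicate 1. Of the 23, only 1 was called without tolerant replicate 1, 2 without parental replicate 2, 13 without parental replicate 1 and 15 without tolerant replicate 2. Among G1 cyclins and CDK inhibitors 5 of 14 rose, namely CCND1, CDKN2A and CDKN2B, which inhibit the cyclin D kinases (0.69 and 1.39), and the pocket proteins RBL1 and RB1 (1.07 and 0.31). RB1 and CDKN2B were called in none of the fits that left out 1 library, RBL1 was lost without parental replicate 2 or tolerant replicate 1, and CDKN2A without parental replicate 2. The count was 1 without parental replicate 2 and 3 without parental replicate 1 or tolerant replicate 1.

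**Figure D3:**
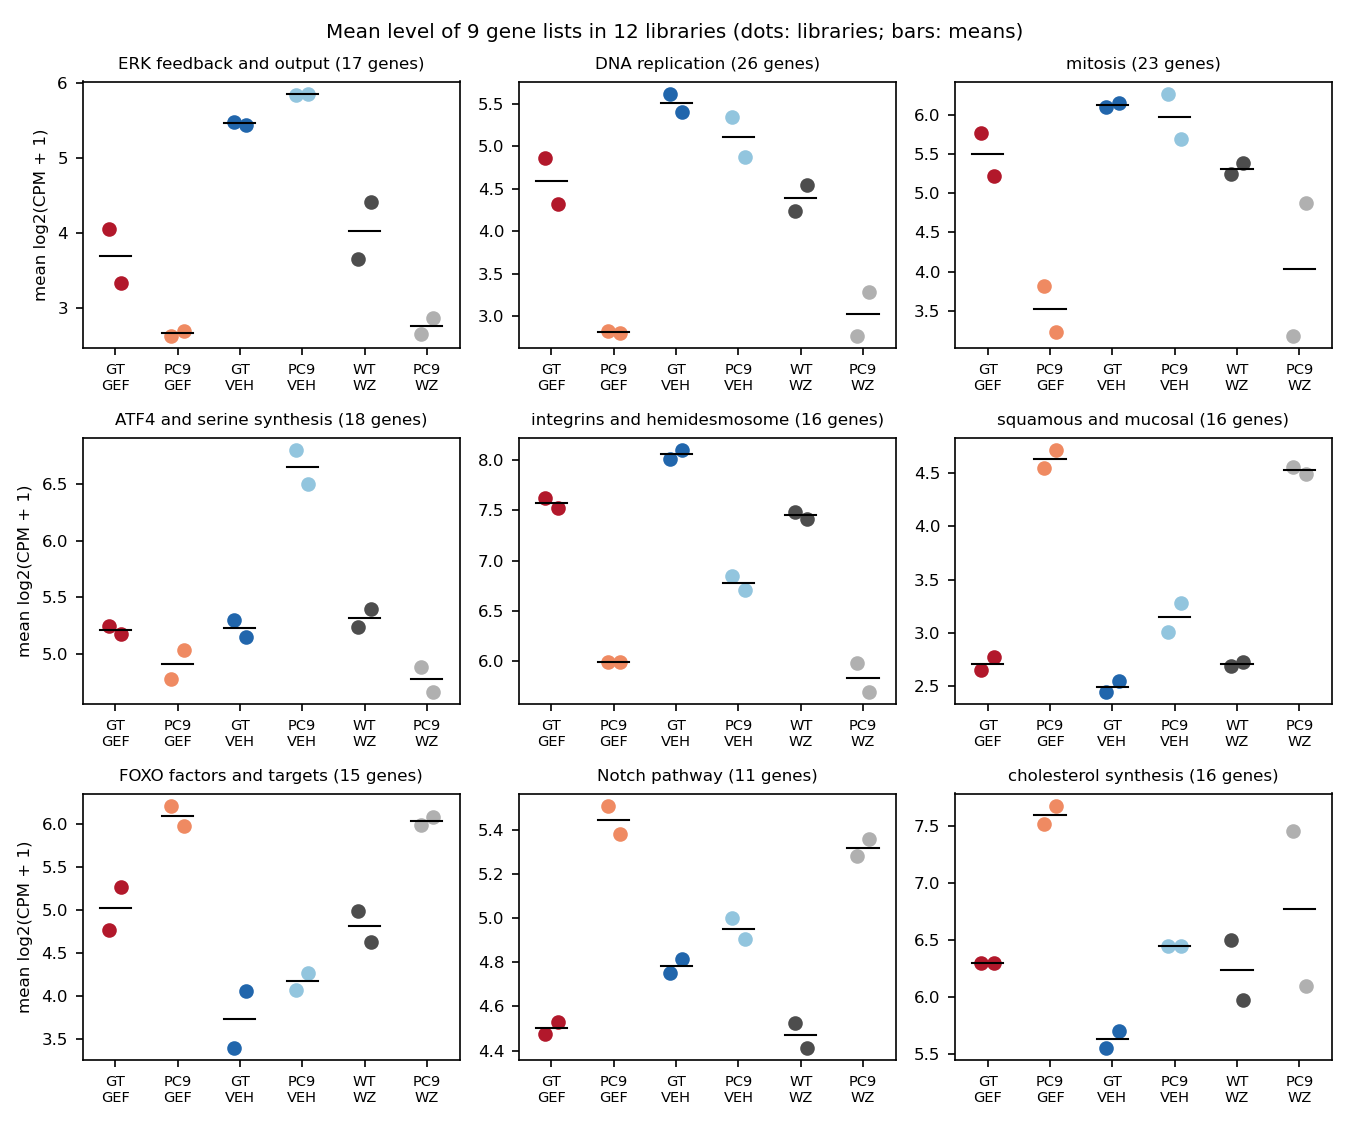
Mean log2(CPM + 1) over the genes of each group, one point per library and a bar at each group's mean, for tolerant (GT) and parental (PC9) cells under gefitinib, the same under vehicle, and WZ4002-tolerant (WT) and parental cells under WZ4002. Among the 8 libraries of the first 4 groups, DNA replication and mitosis genes are lowest in the parental libraries under gefitinib, and squamous genes are highest there.

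Receptors that can bypass EGFR and their ligands, AXL and GAS6 among them, moved in both directions, with 7 of 12 higher and 2 lower. MET, the receptor of hepatocyte growth factor, rose by 1.08. FGFR3, a fibroblast growth factor receptor, had 4.18 and 5.15 CPM in tolerant and 46.03 and 30.5 CPM in parental libraries, with no overlap (-2.77 ± 0.32). EPHA1, an ephrin receptor, was the other fall (-0.48), lost without replicate 2 of either group. Of the insulin and IGF genes, 3 of 11 rose and 5 fell. IGFBP4, which holds IGFs away from their receptor, had 65.1 and 46.5 CPM in tolerant and 4.78 and 5.85 CPM in parental libraries (3.15 ± 0.41), and IGF2R, which clears IGF2, rose by 1.04. INSR, the insulin receptor, fell by 1.53 and IGFBP2, another binding protein, by 1.84. The falls numbered 3 without parental replicate 1 or tolerant replicate 2. IGF1 and IGF2 were too low to be tested.

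YAP targets rose in 9 and fell in 1 of 16 cases, with a median of 0.76. ANKRD1, a nuclear cofactor, had 44.8 and 29.3 CPM in tolerant and 1.65 and 0.95 CPM in parental libraries under gefitinib (4.03 ± 0.42). Under vehicle it had 78.3 and 82.9 CPM in tolerant and 6.04 and 6.27 CPM in parental libraries, so both populations were lower under drug while their order was the same. F3, tissue factor, rose by 2.21, AJUBA, a LIM protein that restrains the Hippo kinases, by 1.67 and TGFB2, a transforming growth factor, by 1.29. The gene that fell was NT5E, the ectoenzyme CD73, with 75.1 and 71.5 CPM in tolerant and 211 and 147 CPM in parental libraries (-1.26 ± 0.27). In the TGF-beta list 3 of 17 rose and 2 fell, against 16.3% and 15.6% of all genes tested. The rises were INHBA, TGFB2 and SKIL, a feedback inhibitor (0.87). The falls were LTBP3, which stores latent TGF-beta (-1.08), and the co-receptor TGFBR3 (-1.27). SKIL kept its call only without tolerant replicate 1, and without tolerant replicate 2 the falls numbered 4.

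The promoters of ANKRD1 and CCN2, a matricellular YAP target picked after its values were seen, are shown for the letters GGAATG, the core bound by TEAD, the DNA-binding partner of YAP. They come from RefSeq (GRCh38.p14), ANKRD1 at chr10:90921038-90921337 and CCN2 at chr6:131951323-131951622, both on the minus strand and with the letters in capitals.
ANKRD1: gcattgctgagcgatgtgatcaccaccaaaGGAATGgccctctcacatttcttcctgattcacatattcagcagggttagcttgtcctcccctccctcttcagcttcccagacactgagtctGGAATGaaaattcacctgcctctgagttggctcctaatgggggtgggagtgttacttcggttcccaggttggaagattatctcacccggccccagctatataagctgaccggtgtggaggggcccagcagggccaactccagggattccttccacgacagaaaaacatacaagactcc
CCN2: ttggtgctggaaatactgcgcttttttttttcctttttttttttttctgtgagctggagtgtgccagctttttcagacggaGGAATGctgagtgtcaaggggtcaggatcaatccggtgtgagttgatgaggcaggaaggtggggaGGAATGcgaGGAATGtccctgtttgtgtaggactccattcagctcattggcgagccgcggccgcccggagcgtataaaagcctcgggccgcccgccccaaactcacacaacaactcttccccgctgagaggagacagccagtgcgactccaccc
ANKRD1 holds 2 matches and CCN2 holds 3, counting both strands. The letters were in 46.2% of the promoters of YAP targets (6 of 13), against 10.9% of all 10718. Of the promoters of all genes that rose at least 2-fold 11.5% held them, and of those that fell at least 2-fold 11.3%. The letters were thus no more frequent among the rises than among the falls. CCN2 had 2.1 and 5.55 CPM in tolerant and 0.08 and 0.33 CPM in parental libraries (1.91 ± 0.40).

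BCL2L11, which encodes the death protein BIM, had 37.5 and 36.3 CPM in tolerant and 57.2 and 48.9 CPM in parental libraries under gefitinib. Its difference of -0.51 ± 0.18 passed the test (adjusted p = 0.0407) but was not called when any one of the 4 libraries was left out. Under vehicle BCL2L11 had 21.1 and 21.2 CPM in tolerant and 17.1 and 18.6 CPM in parental libraries, so both populations were higher under drug. Of the 10 BH3-only and effector genes, 3 rose and 3 fell, as follows. HRK, a BH3-only gene first known from neurons, differed by -1.56 and lost its call only without tolerant replicate 1. BIK, which acts at the endoplasmic reticulum, differed by 1.03 and lost it without tolerant replicate 1 or parental replicate 2. The effector BAK1 (0.60), BID, which links death receptors to mitochondria (0.38), and BBC3, which encodes PUMA (-0.78), were not called in any fit that left out 1 library. MCL1, a short-lived protein that holds BIM in check, had 115 and 122 CPM in tolerant and 241 and 192 CPM in parental libraries, with no overlap (-0.86 ± 0.13). BIRC3, an inhibitor of apoptosis that NF-kB induces, had 138 and 46.2 CPM in tolerant and 9.98 and 12.6 CPM in parental libraries (2.73 ± 0.44). BCL2L1, which encodes BCL-XL, and CFLAR, which blocks caspase 8, differed by 0.48 and -0.47, and neither was called in any fit that left out 1 library.

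TNFSF10, the death ligand TRAIL, had 2.72 and 5.88 CPM in tolerant and 156 and 107 CPM in parental libraries under gefitinib (-4.69 ± 0.37). Under vehicle it had 0.48 and 0.63 CPM in tolerant and 2.13 and 4.47 CPM in parental libraries, so only parental cells under drug were high. Its neighbours in the pathway moved less: TNFRSF1A, a receptor of tumour necrosis factor, fell by 0.88, CASP10, an initiator caspase, fell by 1.15, FAS, another death receptor, rose by 1.08 and FADD, the adaptor of these receptors, rose by 0.45. The call of CASP10 was lost without parental replicate 1 or tolerant replicate 1, FAS kept its call only without tolerant replicate 2, and FADD kept its call only without parental replicate 2. FOXO factors and targets fell in 8 of 15 cases, with a median of -0.70. The count was 4 without tolerant replicate 1 and 5 without parental replicate 1. DEPP1, a FOXO target induced by fasting, had 16.4 and 26.7 CPM in tolerant and 271 and 146 CPM in parental libraries (-3.19 ± 0.36), and the repressor BCL6 fell by 2.55. SESN1, which restrains mTORC1, and TP53INP1, a stress protein, fell by 1.55 and 2.65. Both are p53 targets as well, of which 5 of 14 fell and 1, the oxidoreductase TP53I3, rose (1.48). The p53 targets that fell numbered 2 without replicate 1 of either group and 3 without replicate 2 of either. In the 24 h response of parental cells, with shared libraries, the FOXO list had a median of 1.63.

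Cholesterol synthesis genes fell in 15 of 16 cases, with a median of -1.26. Parental cells under drug against vehicle, with shared libraries, had a median of 1.12 for these genes, with 13 of 16 higher. Tolerant cells under drug differed from untreated parental cells by a median of -0.15, with 2 of 16 lower. Under vehicle the tolerant-minus-parental median was -0.74, with 4 of 16 lower. The count of falls under gefitinib was 5 without tolerant replicate 1, 6 without parental replicate 2, 8 without parental replicate 1 and 8 without tolerant replicate 2. INSIG1, which holds the sterol sensor in the endoplasmic reticulum, had 78.8 and 79.7 CPM in tolerant and 353 and 384 CPM in parental libraries (-2.20 ± 0.38). Fatty acid synthesis genes fell in 6 of 8 cases, and ELOVL6, an elongase, rose by 0.89, a call that held only without tolerant replicate 2. SCD, the desaturase that makes oleate, had 90.4 and 142 CPM in tolerant and 959.5 and 1421 CPM in parental libraries (-3.36 ± 0.46). FASN, fatty acid synthase, fell by 1.93, ACSS2, which makes acetyl-CoA from acetate, by 2.67 and SREBF1, the transcription factor of the pathway, had 47.4 and 70.8 CPM in tolerant and 202 and 271 CPM in parental libraries. These 4 held without any one library. The lipids of either pathway were not measured.

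Genes of the ATF4 response, which makes serine and imports amino acids under stress, moved in both directions: 7 of 18 rose and 4 fell, the rises numbering 4 without parental replicate 1 and 4 without tolerant replicate 1, and the falls 2 in the second of these. ATF4 itself fell by 0.80 ± 0.13 and CEBPB, its partner, by 1.10. SLC7A5, the leucine transporter, had 282 and 174 CPM in tolerant and 37.8 and 68.2 CPM in parental libraries (2.11 ± 0.36), and PSAT1, of serine synthesis, had 34.3 and 29.7 CPM in tolerant and 9.6 and 12.6 CPM in parental libraries (1.46 ± 0.30). The groups did not overlap in either gene. Under vehicle the order was the other way, with 53.5 and 49.9 CPM of PSAT1 in tolerant and 210.2 and 187 CPM in parental libraries.

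Glutathione and NRF2 genes, which guard against oxidants, fell in 9 of 18 cases, and in 5 without parental replicate 2 or tolerant replicate 2. TKT and PGD, of the pentose phosphate pathway, fell by 1.43 and 1.72 and GSR, glutathione reductase, by 1.21. GSTM3, a glutathione transferase, was the 1 that rose, with 246 and 222 CPM in tolerant and 29.1 and 36.1 CPM in parental libraries (2.81 ± 0.32). In glycolysis 2 of 18 rose, PFKP, a phosphofructokinase (1.46), and SLC2A1, a glucose transporter (0.57), and 2 fell, HK2, hexokinase 2 (-2.51), and ALDOC, an aldolase (-1.85). SLC2A1 lost its call without parental replicate 1 or tolerant replicate 2, and ALDOC without parental replicate 2 or tolerant replicate 1. Of 18 subunits of the respiratory chain limma called 0, with 1 at an unadjusted p under 0.05, and limma-voom called 0. Their median was -0.0694. Among the ribosome biogenesis genes 1 fell, FBL (-0.83 to -0.35 in fits that left out 1 library). The other calls were rises, in 7 of 17 cases, with POLR1A, the large subunit of RNA polymerase I, at 0.75. Their number was 1 without tolerant replicate 1 and 2 without parental replicate 1.

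Of the lysosome and autophagy genes 5 of 23 fell and 2 rose, against 15.6% and 16.3% of all genes tested. ATP6V1B1, a proton pump subunit, had 9.59 and 23.8 CPM in tolerant and 146 and 114 CPM in parental libraries (-3.00 ± 0.50), the protease CTSL fell by 1.89 and CTSZ, another cathepsin, rose by 0.78. The falls numbered 3 without replicate 1 of either group. Among the heat shock genes 1 fell, HSPB1 (-1.01 to -0.29 in fits that left out 1 library). The other calls were rises, in 5 of 11 cases, with HSPH1, a co-chaperone, at 1.21. Their number was 1 without tolerant replicate 1 and 2 without either parental replicate.

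Genes of antigen presentation by MHC class I were higher in tolerant cells in 10 of 15 cases, and in 5 without parental replicate 2. The 1 fall, of TAPBP, which loads peptides (-0.46), was lost without parental replicate 1 or tolerant replicate 1. HLA-B, a class I heavy chain, had 109.9 and 126 CPM in tolerant and 17.1 and 12.3 CPM in parental libraries (2.94 ± 0.28). HLA genes share near-identical sequence, so the split between them is uncertain, but B2M, the single light chain, also rose, with 475 and 545 CPM in tolerant and 338 and 246 CPM in parental libraries (0.82 ± 0.16). TAP2, a peptide transporter, rose by 1.46. Interferon-stimulated genes rose in 8 of 19 cases, with the RNA sensor IFIH1 at 0.90. The rises numbered 3 without parental replicate 2, 4 without parental replicate 1 and 4 without tolerant replicate 2. OAS1, an RNA-activated synthetase, was the 1 fall (-1.04), a call kept only without tolerant replicate 2 among the fits that left out 1 library. The motif of the interferon-stimulated response element was in 64.3% of the promoters of interferon-stimulated genes (9 of 14). It was in 58.3% of those of MHC class I genes (7 of 12), against 2.66% of all 10718. Among all genes that differed at least 2-fold, it was in 2.38% of the promoters of the rises and 2.49% of the falls.

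Of the NF-kB feedback and cytokine genes 6 of 15 rose, and 3 did without tolerant replicate 1. IL32, a cytokine, had 20.6 and 22.4 CPM in tolerant and 0.38 and 1.2 CPM in parental libraries (3.69 ± 0.34), and TNFAIP3, which ends NF-kB signalling, rose by 2.28. IL6 had 5.29 and 1.19 CPM in tolerant and 0.04 and 0.08 CPM in parental libraries (1.81 ± 0.44), a call lost without tolerant replicate 1. Among ligands of immune checkpoints, VTCN1, which inhibits T cells, had 13.2 and 37.1 CPM in tolerant and 233 and 109.9 CPM in parental libraries (-2.79 ± 0.53). CD274, PD-L1, had 4.24 and 2.3 CPM in tolerant and 0.85 and 1.11 CPM in parental libraries, and its rise of 1.07 ± 0.34 was called only without tolerant replicate 2 among the fits that left out 1 library. PDCD1LG2, PD-L2, and PVR, a ligand of TIGIT, rose by 1.21 and 0.57, and PDCD1LG2 lost its call without tolerant replicate 1.

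Of genes that others have used as markers of drug tolerance or stem cells, 3 of 16 rose and 3 fell. Among all genes tested 16.3% rose and 15.6% fell. ABCG2, a drug efflux pump, had 49.1 and 25.7 CPM in tolerant and 3.22 and 3.51 CPM in parental libraries, with no overlap (3.07 ± 0.32). ALDH1A3 rose by 1.37 and the related ALDH1A1 fell by 1.12, both of them enzymes that oxidise retinal. EZH2, a histone methyltransferase, rose by 1.24, and ALDH1A2, of the same family as ALDH1A1, fell by 0.85, both calls held only without tolerant replicate 2. HMGA2, a chromatin protein of embryonic cells, had 42.3 and 24.9 CPM in tolerant and 46.7 and 32.7 CPM in parental libraries and was not called (-0.26 ± 0.40). IGF2BP1, an oncofetal RNA-binding protein, was the 1 of 5 in its list called higher (0.37), and in none of the fits that left out 1 library.

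Markers of other cell types moved with the groups at low levels. The 2 leukocyte markers in the table summed to 10.83 and 6.87 CPM in tolerant and 1.56 and 2.26 CPM in parental libraries. They are CD14, whose difference was not called, and ITGAM, an integrin chain of myeloid cells (10.4 and 5.68 CPM in tolerant and 0.97 and 0.9 CPM in parental libraries). The 5 endothelial markers summed to 49.92 and 45.72 CPM in tolerant and 13.92 and 17.55 CPM in parental libraries. Of the 3 that could be tested 2 rose and 1 fell. CDH5, the endothelial cadherin, had 32.6 and 26.8 CPM in tolerant and 3.47 and 3.24 CPM in parental libraries, and ENG, a co-receptor of TGF-beta, rose by 0.73. VWF, von Willebrand factor, had 0.71 and 1.31 CPM in tolerant and 1.61 and 2.86 CPM in parental libraries and fell by 0.68, a call lost without parental replicate 2 or tolerant replicate 1. The 6 fibroblast markers summed to 11.97 and 20.36 CPM in tolerant and 9.89 and 14.06 CPM in parental libraries, and these groups overlapped. COL1A1, the fibroblast collagen, was not called (0.31 ± 0.35). The 2 neuroendocrine markers summed to 15.1 and 16.84 CPM in tolerant and 29.2 and 33.88 CPM in parental libraries. They differed in direction. NCAM1 fell, by -1.31 to -1.05 in fits that left out 1 library, while ENO2 was not called and stood at 0.18 to 0.67 in those fits. The part of other cells in the matrix genes above was not tested.

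The same populations were also compared under vehicle, in libraries that the comparison under drug does not use. There tolerant and parental cells differed in 2947 genes (19%), of which 1454 (9.39%) were higher and 1493 (9.64%) lower, and in 1203 without tolerant replicate 1, 1487 without parental replicate 1, 1554 without parental replicate 2 and 2086 without tolerant replicate 2. Of the genes called in both comparisons, 871 were higher and 950 lower in tolerant cells in both, which is 36.8% of the calls under drug and 61.8% of those under vehicle, and 40 had opposite directions. Across the 15485 genes the differences correlated at a Pearson r of 0.677, a description over genes of populations that are the same in both comparisons. Under vehicle, FN1 had 1055 and 2362 CPM in tolerant and 18.5 and 21.98 CPM in parental libraries (6.22 ± 0.46), and AXL had 181 and 122 CPM in tolerant and 15.8 and 12.3 CPM in parental libraries (3.32 ± 0.27). FN1 and AXL therefore stood apart with or without drug. The integrin and hemidesmosome list was higher in 11 of 16 genes under vehicle, with a median of 1.36, close to the 1.33 under drug. DNA replication and mitosis genes had medians of 0.39 and 0.14 under vehicle, and the ERK list -0.45.

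Whether the tolerant-minus-parental difference under gefitinib itself departs from that under vehicle was tested gene by gene. It did in 310 genes (2%), 165 (1.07%) towards higher and 145 (0.936%) towards lower under drug. Leaving out 1 library gave 90 without parental vehicle replicate 1, 93 without parental gefitinib replicate 1, 111 without tolerant vehicle replicate 1, 114 without tolerant gefitinib replicate 1, 147 without tolerant vehicle replicate 2, 194 without parental gefitinib replicate 2, 198 without parental vehicle replicate 2 and 254 without tolerant gefitinib replicate 2. In 79 of the 310, tolerant cells were higher under drug with no call under vehicle, and in 75 lower under drug with no call under vehicle. In 25 they were higher under drug and lower under vehicle, and in 15 the reverse. In 35 they were higher and in 42 lower under vehicle with no call under drug. In 14 they were higher and in 25 lower both under drug and under vehicle.

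**Figure D4:**
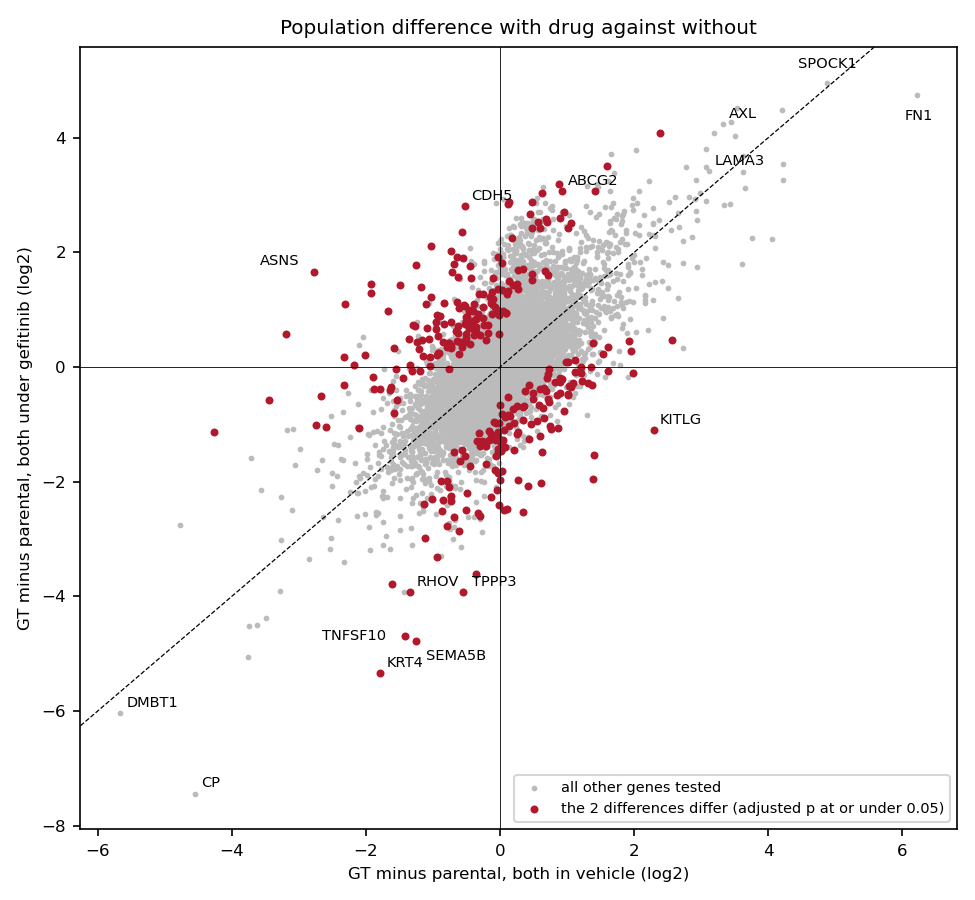
Each point is one gene, placed by its tolerant-minus-parental difference under vehicle (horizontal) and under gefitinib (vertical), both in log2(CPM + 1), with the 310 genes whose differences departed from each other marked. FN1, AXL and CP lie on the same side of 0 in both, while ASNS lies where tolerant cells are higher under drug and lower under vehicle.

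The largest departure was that of ASNS, of the ATF4 and serine list. ASNS, asparagine synthetase, had 15.2 and 18.5 CPM in tolerant and 4.48 and 4.73 CPM in parental libraries under gefitinib, and 13.8 and 11.2 CPM in tolerant and 104 and 79.2 CPM in parental libraries under vehicle. It was highest in untreated parental cells and lowest in parental cells under drug, with the tolerant libraries between. Its difference was 1.66 ± 0.42 under drug and -2.77 ± 0.42 under vehicle, a departure of 4.43 ± 0.60 (adjusted p = 0.00165). ADM2, a peptide hormone of the calcitonin family, CHAC1, which degrades glutathione, and PSAT1 departed by 3.77, 3.40 and 3.38. Of the 18 genes of the list 10 departed towards higher under drug. The count was 5 without parental vehicle replicate 1, parental gefitinib replicate 1 or tolerant gefitinib replicate 1, and 7 to 10 without any other. Under vehicle 13 of the 18 were lower in tolerant cells and 1 was higher. CDH5 also departed towards higher (3.34), with 8.34 and 11.8 CPM in tolerant and 14.6 and 14.9 CPM in parental libraries under vehicle.

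DUSP6 departed by 3.22 ± 0.59, since under vehicle it was lower in tolerant cells (-1.92 ± 0.41). Of the 17 ERK genes 5 departed towards higher, but 0 did without parental vehicle replicate 1, 1 without tolerant gefitinib replicate 1, 2 without parental gefitinib replicate 1 and 3 without tolerant vehicle replicate 2. The largest departures towards lower were of KRT4 (-3.54), SEMA5B (-3.52), KITLG, the ligand of the KIT receptor (-3.39), TPPP3 (-3.38), EFEMP1, a matrix fibulin (-3.34), and TNFSF10 (-3.27). Those of SEMA5B, TPPP3, EFEMP1, TNFSF10, ASNS, ADM2, CHAC1, PSAT1 and CDH5 held without any one of the 8 libraries, while KRT4 was called in 2 of these 8 fits and KITLG and DUSP6 in 6. EGFR was higher in tolerant cells under vehicle, at 1398 and 1136 CPM in tolerant and 658 and 554 CPM in parental libraries (1.06 ± 0.24), and its departure of -1.41 ± 0.35 was lost in each of the 8 fits that left out 1 library.

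The parallel population, tolerant to WZ4002 and compared with parental cells under WZ4002, shares no library with the comparison under gefitinib. It differed in 5675 genes (36.6%), 17.6% higher and 19% lower, and in 3015 without WZ4002-tolerant replicate 2. Of the calls, 1851 were higher and 1788 lower in tolerant cells under both drugs, which is 73.6% of those under gefitinib and 64.1% of those under WZ4002, and 0 had opposite directions. The differences correlated across 15485 genes at a Pearson r of 0.896, again a description over genes. FN1 had 2759 and 1894 CPM in WZ4002-tolerant and 90.4 and 53.3 CPM in parental libraries under WZ4002 (5.02 ± 0.46), AXL had 108 and 107 CPM in WZ4002-tolerant and 5.94 and 8.81 CPM in parental libraries (3.72 ± 0.27), and KRT4 had 9.58 and 2.64 CPM in WZ4002-tolerant and 282 and 305 CPM in parental libraries (-5.57 ± 0.54). All 3 thus moved as they did under gefitinib.

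A direct test of the gefitinib difference against the WZ4002 difference called 0 genes by limma, with 719 at an unadjusted p under 0.05, and 0 by limma-voom on reads. For 74.4% of genes the 95% interval of that difference lay within 2-fold either way. The count was 148 without replicate 1 of the parental cells under WZ4002. Squamous genes had medians of -1.97 under gefitinib and -1.68 under WZ4002, ERK genes 1.23 and 1.41, and integrin genes 1.33 and 1.40. Mitosis genes were called in 3 of 23 cases under WZ4002, with a median of 1.24, and in 20 without replicate 2 of the parental cells under WZ4002, the parental replicate 1 and WZ4002-tolerant replicate 2 giving 0 when left out and WZ4002-tolerant replicate 1 giving 1. Cholesterol genes were lower in 3 of 16 cases under WZ4002, in 16 without that same library, and in 1 without parental replicate 1 or WZ4002-tolerant replicate 2.

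**Figure D5:**
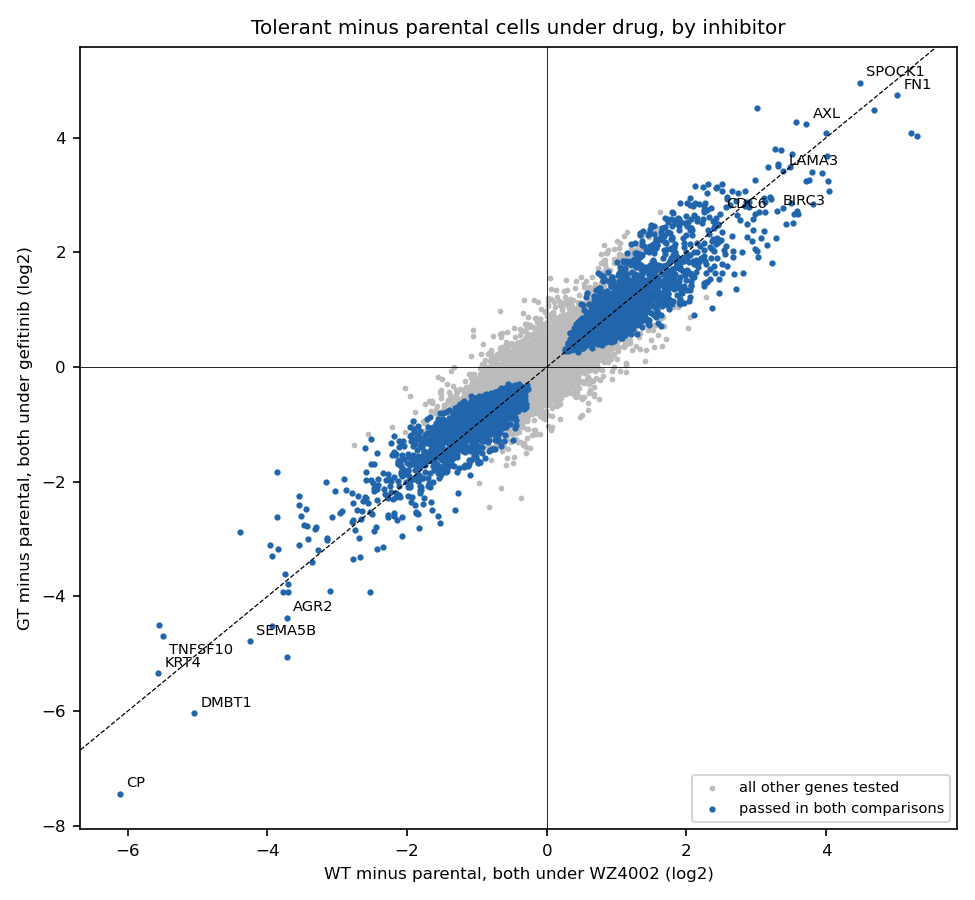
Each point is one gene, placed by the difference between tolerant and parental cells under WZ4002 (horizontal) and under gefitinib (vertical), both in log2(CPM + 1). Genes called in both lie along the diagonal, and none of them lies where the signs are opposite.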

How the data were processed

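PolyA-selected RNA was sequenced from 22 libraries of PC9 cells and derivatives, in 11 groups of 2, with a directional library kit, per the labels' protocols. The submitters' processing notes name STAR, HTSeq and the hg19 build, with no versions, and do not say how HTSeq treated strand. The deposited table holds CPM (counts scaled to library depth) for 17165 genes, scaled by the authors, and no value in it equals 0, so a gene with no read in some library may be outside it. The low values of each library are multiples of 1 step, from which depths of 23.6 to 49.6 M reads followed, with 99.994% to 100% of values whole within rounding. Low genes rest on few reads and are the least precise.

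From these values log2(CPM + 1) was computed, genes reaching 1 CPM in 2 or more libraries were kept (15485 of 17165, 1680 left out), and limma 3.58.1 in R 4.3.3 fitted the means of all 11 groups together with a trended prior (11 residual degrees of freedom, median prior 4.8) and Benjamini-Hochberg adjustment within each comparison. Groups were taken from the labels. The tests were tolerant minus parental cells under gefitinib, under vehicle and under WZ4002, the differences between these, and 2 comparisons with untreated parental cells. Tested on simulated data over 15485 genes with 200 changed, the comparison under gefitinib found 78.6% of the 2-fold changes and 98.6% of the 4-fold ones, and 4.63% of its calls were false. The difference between drug and vehicle found 39% and 93.2%, and 4.06% of its calls were false. The simulation changed far fewer genes than the 4942 called under gefitinib here, so it does not give the share of false calls among them.

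The genes named are the 12 largest rises and 12 largest falls under gefitinib among called genes with a group mean of at least 5 CPM, the 6 largest each way in the other comparisons, EGFR, DUSP6, BCL2L11 and MCL1, from each list the 4 genes of lowest p under gefitinib, and every member needed to say which of 5 or fewer were called, except a few genes that are not reported here. CDH1 and EPCAM were named as identity checks. MCM2, CCN2, MMP13, EPHA1, ELOVL6, TAPBP, OAS1, FBL and HSPB1 were named after their values were seen where a count of 5 or fewer or a promoter called for them. The comparison and its 43 gene lists (654 genes) were chosen with earlier results of these data known. Promoters were matched by symbol to RefSeq (10718 tested genes matched), and 9 motifs were searched on both strands. Genes with near-identical copies (CP and CPP, the keratins, HLA, PSG and AKR1C genes) may have had reads split between copies. Alternatives varied the pseudocount, the filter, the scaling, the replicate block, library weights, the libraries in the fit and each library left out.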

Additional observations from a re-analysis of the deposited data

Results flagged for a closer look

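The results gathered here are the genes named above whose tolerant-minus-parental difference under gefitinib departed from that under vehicle in limma's test of that difference, over the libraries of the 4 groups. In all 310 of 15485 genes did so, and each value below is the difference under gefitinib minus the difference under vehicle, in log2(CPM + 1).

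Towards higher under drug, genes of the ATF4 and serine list departed, ASNS by 4.43, CHAC1 by 3.40, PSAT1 by 3.38, SLC7A5 by 3.13 and ATF4 itself by 0.78. Of the ERK feedback and output list, DUSP6 departed by 3.22, DUSP4 by 2.46 and IER3 by 2.07. The others named were ADM2 (3.77), CDH5 (3.34), ADCY5, an adenylyl cyclase (3.12), ITGA6 (2.30), CDC6 (2.22), ABCG2 (2.14), MCAM (1.70) and CDKN2A (1.12). In fits that left out 1 library, the difference under gefitinib alone was -1.265 to -1.015 for ADCY5 and 0.44 to 0.72 for ADM2. ADCY5 was thus lower in tolerant cells under drug, though it departed towards higher.

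Towards lower under drug, the keratins KRT4, KRT6A and KRT8 departed by -3.54, -1.97 and -0.94. The others named were SEMA5B (-3.52), KITLG (-3.39), TPPP3 (-3.38), EFEMP1 (-3.34), TNFSF10 (-3.27), RHOV (-2.59), NRARP (-2.21), MMP7 (-2.10), FGFR3 (-1.98), NT5E (-1.69), HK2 (-1.64), EGFR (-1.41), ALDH1A1 (-1.10) and MCL1 (-1.01). The difference of KITLG under gefitinib alone was -1.35 to -0.85 in fits that left out 1 library, smaller than its departure.

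Many of these calls rested on single libraries. Of the 8 fits that left out 1 library, KRT8 and EGFR were called in 0, and ATF4, CDKN2A, MCAM, FGFR3 and ALDH1A1 in 1. KRT4, ABCG2, HK2, MMP7 and NT5E were called in 2, IER3, CDC6 and ITGA6 in 3, and DUSP4 in 5. DUSP6, KITLG and NRARP were called in 6 and MCL1 in 7. SEMA5B, TNFSF10, TPPP3, RHOV, EFEMP1, KRT6A, ASNS, ADM2, CHAC1, PSAT1, SLC7A5, CDH5 and ADCY5 kept their call in all 8.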

How the results depend on the processing

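For tolerant against parental cells under gefitinib, the other pseudocount, no filter, both scalings, library weights, limma-voom and a fit of the compared groups alone gave 4527 to 5531 genes against 4942, and leaving out 1 library gave 2625 to 4161. Limma-voom was chosen after seeing the data. The fits with edgeR and DESeq2 were not run, since the recovered reads did not pass the check of units. Limma-voom used those same recovered reads, so its counts carry that limit. Under these settings no called gene reversed. Among uncalled genes, leaving out 1 library gave -0.63 to 0.11 for HMGA2, -0.44 to 0.18 for CD14, a leukocyte marker, and -0.030 to 0.64 for COL1A1, so their signs are not settled.

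The labels do not say what a replicate number shares. Deviations of same-numbered libraries correlated at 0.02 between tolerant and parental cells under gefitinib and at 0.18 under vehicle, at 0.63 between tolerant cells under gefitinib and vehicle and at 0.36 between parental cells under gefitinib and vehicle, so the numbers did not pair all 4 groups. Such deviations correlated at -0.46 between gefitinib-tolerant cells under gefitinib and WZ4002-tolerant cells under WZ4002, though these groups share no library. A replicate block gave 5222 genes under gefitinib and 435 for the difference between drug and vehicle.

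Leaving out 1 library gave 1203 to 2086 genes for tolerant against parental cells under vehicle, 3015 to 5159 under WZ4002 (2785 with only the compared groups in the fit), 2576 to 4716 for tolerant cells under gefitinib against untreated parental cells, 4525 to 5898 for parental cells under gefitinib against vehicle, 90 to 254 for the difference between drug and vehicle and 0 to 148 for gefitinib against WZ4002. The difference between drug and vehicle moved most with the method, from 310 genes to 665 with library weights, 167 with limma-voom and 690 with only the compared groups. The cause was not tested. Depth limits genes under about 1 CPM, and 2 libraries a group limit the rest.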
